A study of Drosophila melanogaster with 2 samples.

Results

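In a ChIP-seq experiment on the zinc finger protein CG6654, 4219 weak promoter regions lay below the authors' set of reproducible peaks. They were chosen by the authors' pooled signal and by their place: a member is a region of the pooled, unthresholded list that overlaps no peak of the reproducible set by 1 bp or more and has its summit no more than 500 bp from where a protein-coding transcript begins. The pooled list held 30000 regions, of which 26666 lay outside the reproducible set, and 15.8% of those 26666 had a summit within 500 bp of a start. The reproducible set, selected with the irreproducible discovery rate (IDR), held 2962 peaks, which were exactly the 2962 pooled regions of highest signal, and 1214 of them had a summit within 500 bp of a start. The rule therefore set a ceiling on pooled signal and also left out 372 weaker regions that overlap an IDR peak, so the low signal of the members is a description and not a finding. The remaining 22447 regions outside the IDR set, called distant weak regions here, served for comparison.

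The chromatin came from whole embryos of Drosophila melanogaster, both sexes pooled, aged 0 to 12 h. The flies were transgenic for CG6654 with GFP at the C-terminal end, and chromatin was precipitated with anti-GFP, so both samples carried the transgene. The samples formed 1 group of 2 biological replicates, numbered 1 and 3, and no control was analysed here. Each value is an average over the cell types and stages of that window. The deposited lists hold no read totals. Depth is therefore unknown, and the 95% Wilson intervals below cover counting error over regions or genes only.

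CG6654 belongs to the ZAD family of C2H2 zinc finger proteins, which is large in insects and includes several proteins that bind insulators and promoters. Active promoters hold a stretch of open, nucleosome-poor DNA just upstream of the start, where sequence-specific factors such as DREF, M1BP and BEAF-32 bind in flies. The IDR method keeps regions whose rank is repeated between replicates. The unthresholded lists it starts from are made long on purpose, so that they reach down into background.

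The word most enriched at IDR summits, ACAGTTTG (on the other strand CAAACTGT), was used to ask whether weak promoter regions carry a sequence enriched at the strong ones. It was found without any member, from 50 bp on each side of IDR summits against the flanks of the same peaks. It lay in 5.60% of the 2962 IDR summit windows and in 0.692% of their flanks. The 5 weak promoter regions of highest signal that held it are shown so that the members' copies of the word can be seen in place. Sequences are from the plus strand of the Release 6 genome (dm6), and capitals mark the word. They show the 50 bp on each side of the summit, or 30 bases around the word where that window meets an annotated untranslated region.
Cyt-c-p, chr2L:16722407-16722436: ctgcaggatgtCAAACTGTattattgtgtt
CG2964, chr2L:2812347-2812376: ttaggcactttACAGTTTGgtaagctctgc
CG9331, chr2L:20823258-20823358: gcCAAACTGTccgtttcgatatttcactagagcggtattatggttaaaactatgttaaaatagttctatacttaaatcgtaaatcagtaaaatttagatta
InR, chr3R:21591598-21591698: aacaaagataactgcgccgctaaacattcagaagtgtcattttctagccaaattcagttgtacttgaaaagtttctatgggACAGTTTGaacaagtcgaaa
mRpL11, chr3R:14511872-14511901: cgctttgcataACAGTTTGaatcaattgtt
Cyt-c-p encodes cytochrome c, InR the insulin receptor and mRpL11 a protein of the mitochondrial ribosome. In the 5 regions the word stood on either strand and at various places in the window. The summits of CG2964 and CG9331 lay upstream of the start, and those of Cyt-c-p, InR and mRpL11 lay downstream. Beside them stand the 2 IDR promoter peaks of highest signal that held the word, chosen after their values were seen, with capitals again marking it.
CG8861, chr3R:9328952-9329052: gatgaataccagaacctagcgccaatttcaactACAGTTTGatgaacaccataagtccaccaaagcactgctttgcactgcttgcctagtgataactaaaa
shps, chr3R:24279527-24279556: accagcgttttCAAACTGTgcctgtgcatg
Their pooled signals of 7101 at CG8861 and 6749 at shps compare with 61.0 at Cyt-c-p, the highest of the 5 weak regions shown, and 44.1 at mRpL11, the lowest. That gap in signal follows from how the members were chosen.

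Outside 1 arm from which no sequence is printed, the 3 weak promoter regions of highest signal without the word are shown as examples of the upper end of the members, with capitals marking any of the 11 core promoter words searched below.
dnc, chrX:3329002-3329102: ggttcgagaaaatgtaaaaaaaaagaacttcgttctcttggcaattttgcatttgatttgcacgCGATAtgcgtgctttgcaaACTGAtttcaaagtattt
barr, chr2L:20061215-20061244: caggtcctgccagtgctgaatggatttcaa
wake, chr3R:22673583-22673683: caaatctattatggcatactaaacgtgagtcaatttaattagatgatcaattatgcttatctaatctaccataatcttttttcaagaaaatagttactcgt
Only the dnc window held any of those words, the initiator letters TCAGT and the CGATA letters that BEAF-32 binds. TCAGT lay there on the strand opposite to dnc and away from its start, so it is a match of letters only. The windows of barr and wake held none. The wake window was rich in A and T, with 26.7% G and C.

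The weakest member had a pooled signal of 19.7 and the strongest 74.6, around a median of 28.9 and an upper quartile of 39.4. The distant weak regions had a median of 25.9, and the IDR promoter peaks ran from 75.2, at CG31176, to 7101, with a median of 139. The scale of this value is not stated in the sources used here, and it served only to rank regions. The authors' q-value was at or under 0.05 in 724 members (17.2%) and at or under 0.01 in 400, so most members did not pass a usual significance level in the pooled data. Of the members, 4214 were 384 bp wide, the fixed width of the list.

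The members had 3395 nearest genes, 2762 of them with 1 member and 633 with more, up to 6. InR, for example, was the nearest gene of 5 weak regions at several of its alternative starts. Members that share a promoter are not independent, and the tests below treat regions as if they were. Comparisons of shares use the exact test of Fisher, two-sided, with p-values adjusted over all 9 tests of regions or all 22 of words. Counted by gene, 3956 of 13968 protein-coding genes (28.3%) had a weak region within 500 bp of a start. Of these, 304 genes also had an IDR peak at a start and 3652 (26.1%) had a weak region only. IDR peaks were at the starts of 1524 genes (10.9%), and 8785 genes had no listed region there. Weak regions thus marked more genes than the IDR set did, with 4219 members against 1214 IDR promoter peaks. Of the sequence of the arms, 11.5% lies within 500 bp of a start. That value compares with the 15.8% of the 26666 regions outside the IDR set, and not with the shares of genes.

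The excess of regions at starts shrank steadily down the pooled list. Among the 3000 regions of highest signal, nearly all of them IDR peaks, 40.8% (interval 39.1 to 42.6) were promoter regions. The next 3000 regions, where the strongest members lie, had 28.1% (26.5 to 29.7), and those ranked 6001 to 9000 had 20.7% (19.3 to 22.2). From rank 21001 on the share was 11.8% to 12.6%, close to the 11.5% of the arms. Summits of the promoter regions moved in parallel from upstream to no preferred side: 83.8% lay upstream in the first 3000, 76.7% in the next 3000, 65.7% in the third bin and 48.3% at ranks 12001 to 15000. Below that rank the upstream share stayed between 48.5% and 51.6%. In both measures the upper ranks were graded toward the IDR peaks. At the lower ranks the share at starts was near that of the arms, and the summits had no preferred side. The bins hold all promoter regions, and at ranks 3001 to 6000 members were 792 of 842.

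**Figure D1:**
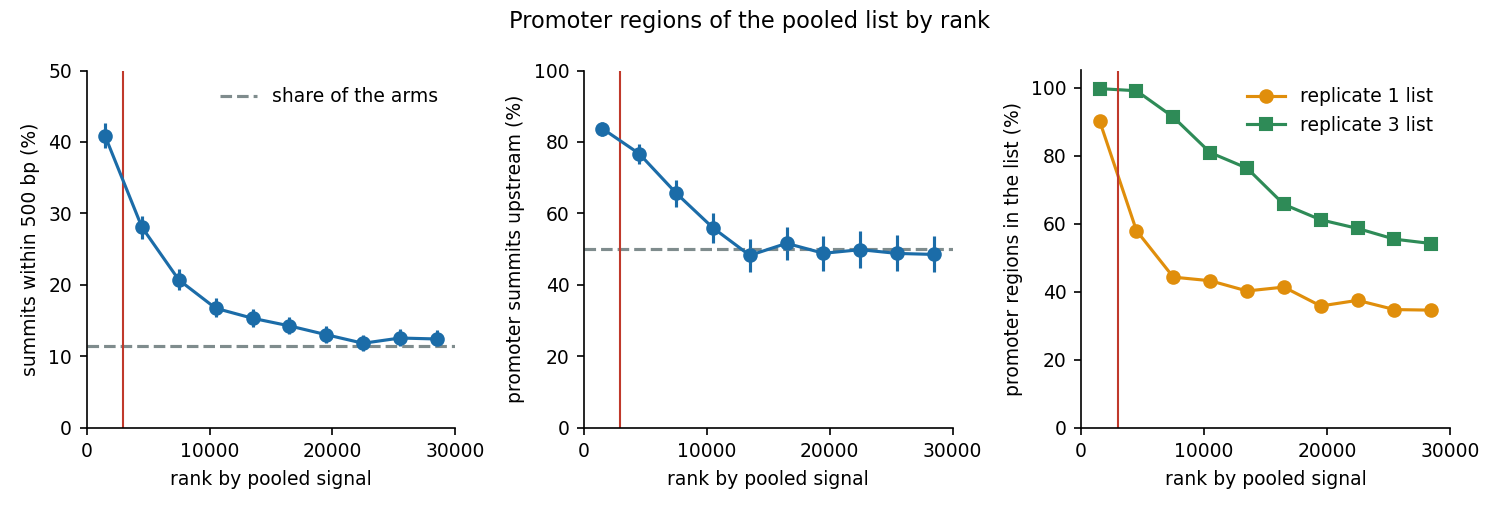
Regions of the pooled list in bins of 3000 by rank of pooled signal (x axis). Left, percentage of all regions that are promoter regions, with 95% Wilson intervals and a dashed line at the 11.5% of the arms; middle, percentage of those promoter regions with the summit upstream, with intervals and a dashed line at 50%; right, percentage that overlap a region of each replicate list. The red line marks rank 2962, the end of the IDR set. All 3 shares fall with rank, the left from 40.8% to 12.4% and the middle from 83.8% to 48.5%.

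Most weak promoter regions were found by 1 replicate, and that replicate was mostly number 3. The unthresholded list of replicate 3 overlapped 3167 of the 4219 members (75.1%, interval 73.7 to 76.3), and that of replicate 1 overlapped 1754 (41.6%, 40.1 to 43.1). The distant weak regions were overlapped about equally, 56.6% by replicate 3 and 57.9% by replicate 1. Of the IDR promoter peaks, 99.7% overlapped a region of replicate 3 and 90.2% a region of replicate 1. The imbalance was therefore seen at starts and not in the distant regions.

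Both replicate lists held 1058 members (25.1%, interval 23.8 to 26.4), beside 26.2% of all pooled regions outside the IDR set. In the distant weak regions the share was 26.4% (25.8 to 27.0), and the difference did not pass the test (odds ratio 0.933, exact test, adjusted p = 0.137). The comparison depended on how regions were counted: restricted to regions of replicate 3's list the odds ratio was 0.574, and restricted to regions of replicate 1's list it was 1.81. A further 2109 members (50%) were in replicate 3's list only, 696 (16.5%) in replicate 1's list only and 356 (8.44%) in neither. Of the distant regions found in 1 list, 49.0% were in that of replicate 3, against 75.2% of such members.

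The replicate lists themselves differed at starts in the same direction. Each held 30000 regions, and 7523 (25.1%) of replicate 3's lay within 500 bp of a start, against 3777 (12.6%) of replicate 1's. Among the 3000 strongest regions the shares were 43.4% and 35.0%, and among the next 3000 they were 35.9% and 13.0%. From rank 6001 on, replicate 1's list had 8.53% to 10.4% of regions at starts per 3000, while that of replicate 3 still had 15.7% among its last 3000. The protocol documents cited for the replicates differ, and their part in this difference was not tested.

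Members in different lists also differed in strength, place and composition. Those in both lists had a median pooled signal of 39.3, against 29.3 for replicate 3 only, 24.9 for replicate 1 only and 22.7 for neither. Summits lay upstream of the start in 63.7% (interval 60.8 to 66.5) of members in both lists and in 60.3% (58.2 to 62.3) of those in replicate 3's list only. The share was 45.3% (41.6 to 49.0) in replicate 1's list only and 43.5% (38.5 to 48.7) in neither. The groups with replicate 3 therefore leaned upstream, and the groups without it did not. These are descriptions, since the pooled signal was made from the reads of both replicates.

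Weak promoter regions leaned upstream of the start far less than IDR promoter peaks. The summit was upstream in 2415 of the 4219 members (57.2%, interval 55.7 to 58.7), against 83.7% (81.5 to 85.7) of the IDR promoter peaks (odds ratio 0.261, exact test, adjusted p = 1.48e-68). The median position of the members' summits was -44 bp, negative being upstream, and that of the IDR promoter peaks was -132.5 bp. Downstream positions from 200 to 500 bp, inside the gene, held 22.6% of members and 5.68% of IDR promoter peaks. The difference was seen in each alternative tried, with odds ratios between 0.252 and 0.343. Split by signal into 4 groups of 1054 or 1055, the members had an upstream share of 49.0% in the lowest group, 48.2% and 56.5% in the middle groups and 75.3% (interval 72.6 to 77.8) in the highest.

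**Figure D2:**
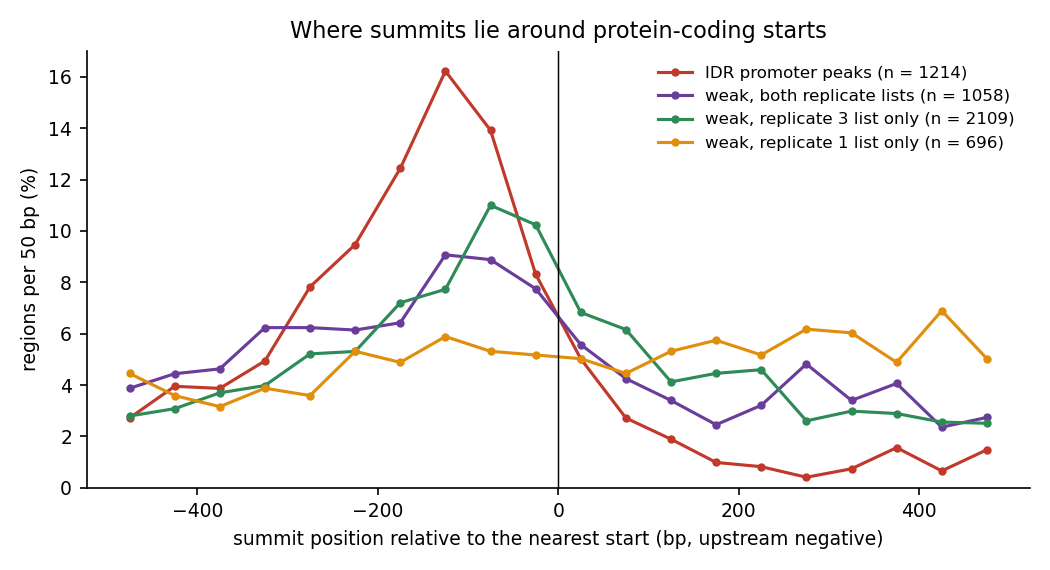
Percentage of regions per 50 bp (y axis) by position of the summit relative to the nearest protein-coding start, negative upstream (x axis), for IDR promoter peaks and for weak promoter regions in both replicate lists, in replicate 3's list only and in replicate 1's list only. IDR promoter peaks pile up between 50 and 200 bp upstream, weak regions with replicate 3 have a lower and broader rise there, and those with replicate 1 only are spread nearly evenly.

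Closeness to the start itself did not separate the classes. The summit was within 100 bp of the start in 29.0% (interval 27.7 to 30.4) of members and 30.1% (27.6 to 32.8) of IDR promoter peaks (odds ratio 0.948, exact test, adjusted p = 0.509). This comparison turned with the width of the promoter window, to an odds ratio of 1.24 within 250 bp of a start and 0.716 within 1000 bp, both past the threshold. Promoters shared by a divergent pair, with the start of another gene on the opposite strand at most 1000 bp upstream, were less frequent among members. They made up 24.3% (23.0 to 25.6) of members and 37.9% (35.2 to 40.6) of IDR promoter peaks (odds ratio 0.526, exact test, adjusted p = 2.67e-19). The share rose from 18.2% in the lowest of the 4 signal groups to 33.0% in the highest. By replicate list, it was 30.8% in replicate 3's list only, 20.7% in both lists, 18.8% in neither and 12.9% in replicate 1's list only.

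Weak promoter regions lacked the marked drop in GC content that IDR promoter peaks showed. In the 50 bp on each side of the summit, the median GC content of members was 41.6%, against 42.6% in their own flanks from 200 to 300 bp away. The median difference between summit and flanks was -0.495 percentage points. In IDR promoter peaks the summit had 32.7% and the flanks 43.6%, with a median difference of -10.4 points. The members thus resembled the distant weak regions, which had 42.6% both at the summit and in the flanks.

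Strong members were again nearer to the IDR peaks. Summit GC content fell from 44.6% in the lowest signal group to 43.6%, 41.6% and 36.6% in the following groups. Members in both lists had 39.6%, those in replicate 3's list only 40.6% and those in replicate 1's list only 46.5%, above their own flanks by a median of 1.98 points. These are descriptions with no test. GC content affects how well DNA fragments are amplified and sequenced, and its part in the difference between replicates was not tested.

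**Figure D3:**
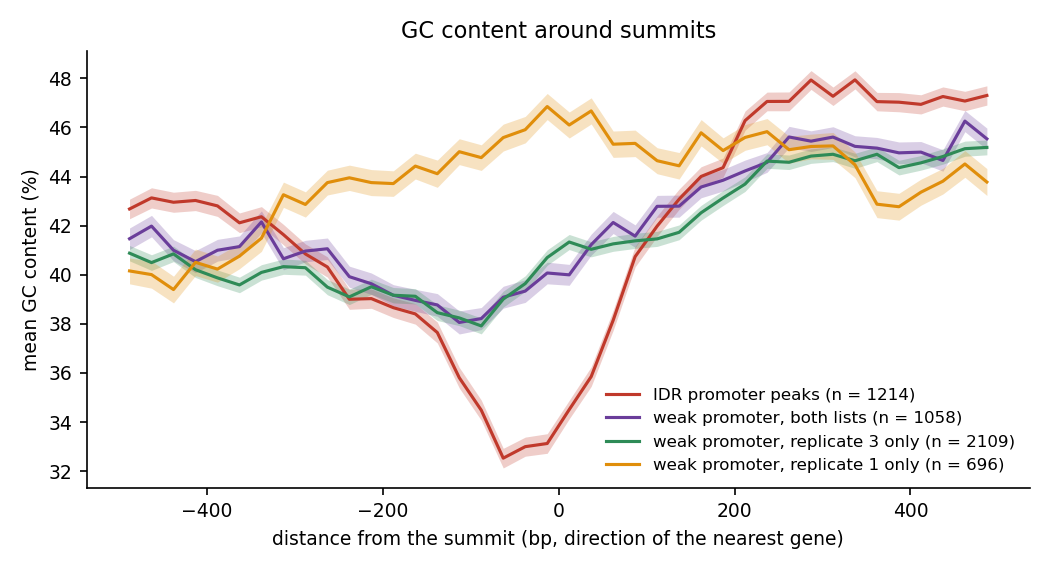
Mean GC content in steps of 25 bp (y axis, bands of 1 standard error over regions) by distance from the summit in the direction of the nearest gene (x axis), for IDR promoter peaks and weak promoter regions by replicate list. The IDR promoter peaks dip to 32.5% just upstream of the summit, the weak regions with replicate 3 dip to about 38%, and those with replicate 1 only rise to 46.9% at the summit.

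The leading word of the IDR set was nearly absent from weak promoter regions. It lay in the summit window of 20 of the 4219 members (0.474%, interval 0.307 to 0.731), against 13 of their flanks at lower coordinates (0.308%) and 16 of those at higher coordinates. No member had it both at the summit and in the lower flank, and the summit excess did not pass the test (ratio 1.54, exact McNemar test, two-sided, adjusted p = 0.381). Of the IDR promoter peaks, 31 (2.55%, interval 1.80 to 3.60) held it (odds ratio of members to IDR promoter peaks 0.182, exact test, adjusted p = 9.82e-09), but these peaks were among those that gave the word. The leading word of the 1748 IDR peaks away from starts alone, CAGTTTGA, overlaps it by all but 1 base and was found without any promoter region, in a search added after the values were seen. It lay in 30 members (0.711%, interval 0.499 to 1.01) and in 33 IDR promoter peaks (2.72%, 1.94 to 3.79), and this difference passed the test (odds ratio 0.256, exact test, adjusted p = 8.07e-07). The distant weak regions held ACAGTTTG in 0.441%, which the members did not exceed detectably (odds ratio 1.08, exact test, adjusted p = 0.801). They held CAGTTTGA in 0.454%, and the members' 0.711% did not pass the test against this (odds ratio 1.57, exact test, adjusted p = 0.0921).

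Members of high signal held ACAGTTTG in somewhat larger numbers, but few cases decide this. It lay in 7 of 1055 members of the highest signal group, 6 in each middle group and 1 of 1055 in the lowest (highest against lowest, odds ratio 7.04, exact test, adjusted p = 0.137). With 1 mismatch allowed, it lay in 13.5% of the highest and 9.0% of the lowest group, which passed the test (odds ratio 1.57, exact test, adjusted p = 0.00332). This looser match lay in 11.2% of all members, in 9.79% and 9.53% of their flanks and in 10.7% of distant weak regions. Summit GC content also differed between the highest and lowest groups, at 36.6% and 44.6%, and its part was not tested. A longer matrix of 18 columns, trained on IDR peaks and chosen after earlier results were seen, matched 20 members (0.474%) and 17 of their lower flanks. It matched 4.17% of the 1078 IDR promoter peaks not used to train it. Most weak promoter regions therefore had no match to either form of this sequence, and the same held for most IDR promoter peaks. The classes differed in how rare a match was.

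A search within the members' own summit windows, made after the other results were seen, gave another word. AGTGTTGG (other strand CCAACACT) lay in 49 members (1.16%, interval 0.880 to 1.53) and in 30 of 8438 flanks (0.356%). Its exact p of 2.15e-07 became 0.00707 after Bonferroni adjustment over the 32896 possible words. The overlapping word CAACACTG lay in 58 members (1.37%) and in 42 flanks (0.498%), with an adjusted p of 0.0176. No other word passed. The 3 members of highest signal with AGTGTTGG, outside the arm from which no sequence is printed, are shown with capitals marking it on either strand.
Phs, chr3L:15619714-15619814: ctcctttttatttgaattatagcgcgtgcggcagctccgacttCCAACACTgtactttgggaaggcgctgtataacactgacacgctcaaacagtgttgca
CG10214, chr3R:23767509-23767609: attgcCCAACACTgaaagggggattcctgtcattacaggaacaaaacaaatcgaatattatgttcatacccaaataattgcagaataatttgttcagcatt
Rlip, chr3R:21017658-21017687: gtgcacttatcAGTGTTGGatagcagcggc
Phs is counted below among the ZAD and related zinc finger genes, and Rlip encodes a Ral-interacting protein. In these 3 the summit lay 137, 71 and 43 bp upstream of the start.

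AGTGTTGG lay in 0.227% of the distant weak regions and 0.412% of IDR promoter peaks; since it was picked for its excess in the members, its higher share there is partly fixed by the choice. CAACACTG lay in 0.365% of distant weak regions and in 1.32% of IDR promoter peaks. By replicate list, AGTGTTGG lay in 1.42% of members in both lists, 1.19% of those in replicate 3's list only and 4 of 696 (0.575%) in replicate 1's list only. CAACACTG lay in 16 members in both lists, in 38 in replicate 3's list only and in 0 of 696 in replicate 1's list only, which allows a share of up to 0.431%. Counted by gene from 150 bp before to 50 bp after a start, AGTGTTGG was present at 2.41% of genes with a weak region only, 3.02% of genes with an IDR peak and 1.40% of genes with no listed region, beside 1.84% of all protein-coding genes. CAACACTG was present at 3.86%, 5.25% and 2.16% of the same classes, beside 2.94% of all. Both words were more frequent at starts with a region of either class than at starts without one, as a description with no test. They were picked from the members' summit windows, which can overlap these gene windows. The higher share at genes with a weak region only is therefore partly fixed by the choice.

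Core promoter words were compared between genes with a weak region only, genes with an IDR peak and genes with neither. Each gene had 1 start, the one at its region of highest signal. Genes with no listed region were given their most upstream start, so the classes differed in how the start was chosen. Of 11 words searched on both strands in the same window, 4 differed in frequency from genes with no listed region. With the most upstream start used for every gene, the same 4 words differed. The counts are of letters at any place in the window, not of elements at a set distance from the start. The TATA box word TATAAA was at 29.2% (interval 27.7 to 30.7) of genes with a weak region only and at 34.7% (33.7 to 35.7) of genes with none (odds ratio 0.776, exact test, adjusted p = 6.00e-08). Genes with an IDR peak had 29.1% (26.8 to 31.4), and all protein-coding genes 32.6%. The TATA box binds the general factor TBP and is typical of tissue-specific genes with a focused start. Against IDR genes the odds ratio was 1.01 (exact test, adjusted p = 0.973), and it fell to 0.800, past the threshold, with promoters of 250 bp.

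The other 3 words were more frequent than at genes with no listed region. The CACA repeat (CACACACA) was at 4.24% against 2.64% (odds ratio 1.63, exact test, adjusted p = 5.75e-05), and at 3.17% of all genes. Its odds ratio fell to 1.38 with the most upstream start used for every gene (exact test, adjusted p = 0.018). The E-box CAGCTG, a site of basic helix-loop-helix factors, was at 15.6% against 12.7% (odds ratio 1.27, exact test, adjusted p = 0.000197), and at 14.2% of all genes. The downstream element searched as CGGACGT was at 1.73% against 1.13% (odds ratio 1.54, exact test, adjusted p = 0.0331), and at 1.36% of all genes. The call for the downstream element was lost in 4 alternatives, with odds ratios from 1.32 to 1.54. Against genes with an IDR peak, 2 words differed. The E-box was rarer, at 15.6% against 19.6% (odds ratio 0.761, exact test, adjusted p = 0.00333), so its frequency rose from genes with none through weak to IDR. This call was lost for members at or above the pooled median signal (0.859) and for members in both lists (0.850). The initiator word TCAGT was more frequent, at 42.7% against 37.9% (odds ratio 1.22, exact test, adjusted p = 0.00561), a call lost for members at or above the median signal (1.14).

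Words of the best known fly promoter factors did not pass the test in either comparison when all members were used with the distance and window above. The DREF site TATCGATA was at 7.39% of genes with a weak region only, 8.27% of IDR genes, 7.98% of genes with none and 7.85% of all. The core of the M1BP site, GTCACACT, was at 6.08%, 5.91%, 5.57% and 5.75% of the same classes. The BEAF-32 letters CGATA, which also lie within the DREF site, were at 38.7%, 36.5%, 38.8% and 38.6%. The GAGA repeat GAGAGAGA was at 2.68%, 3.41%, 2.0% and 2.33%. The Zelda letters CAGGTA were at 4.41%, 3.22%, 4.27% and 4.19%, and CTTTTC, part of the TCT initiator of ribosomal protein genes, was at 19%, 20.4%, 18.3% and 18.8%. Adjusted p-values ran upward from 0.0703 for these words, the lowest being GAGA against genes with none. These results depended on distance, window and signal, and on which replicate's list the members were restricted to. With only members in replicate 1's list, the DREF site passed the test. It was rarer at weak-region genes than at genes with none (odds ratio 0.555, exact test, adjusted p = 1.08e-05) and at IDR genes (0.534, adjusted p = 0.000186). Against genes with none the DREF site also passed at 1000 bp (0.812). The GAGA repeat passed against genes with none with a window from 250 bp upstream (1.35), and against IDR genes at 1000 bp (0.600). The M1BP core passed against genes with none with promoters of 250 bp (1.27). At or above the pooled median signal, GAGA (1.48) and the M1BP core (1.27) passed against genes with none, and CGATA (1.21) against IDR genes. The direction for the M1BP core and for CGATA turned with the list.

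**Figure D4:**
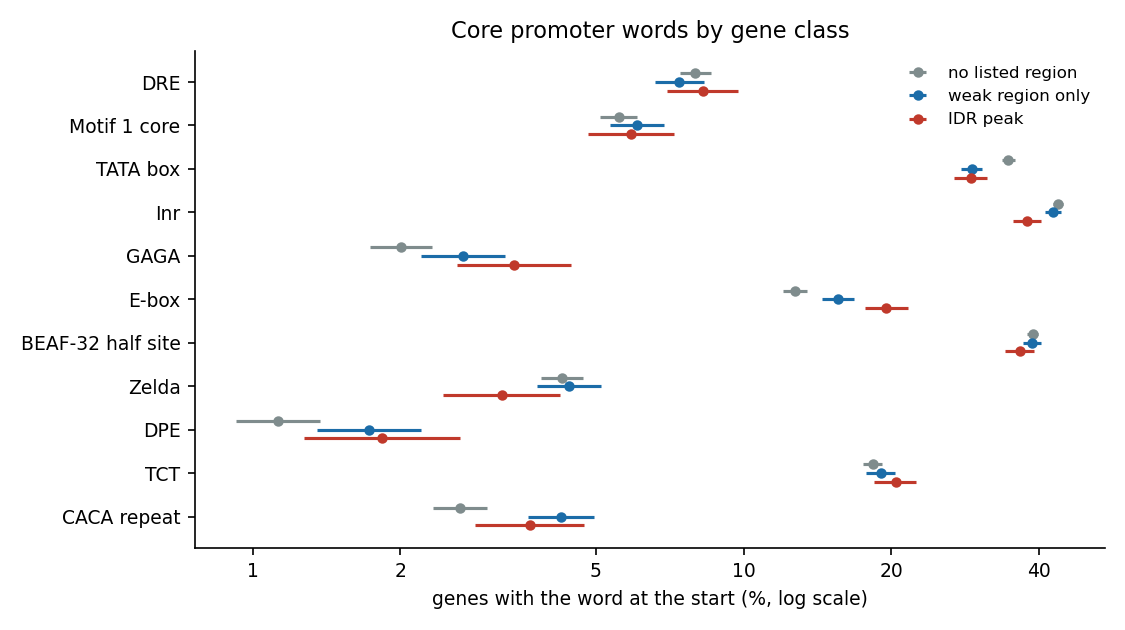
Percentage of genes with each core promoter word between 150 bp before and 50 bp after a start (x axis, log scale), for 8785 genes with no listed region, 3652 with a weak region only and 1524 with an IDR peak, with 95% Wilson intervals. The intervals of weak-region genes and genes without a region are apart for the TATA box, the E-box and the CACA repeat.

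The strongest weak promoter region, at 74.6, lay 355 bp upstream of dnc on X, at chr X 3328860 to 3329243 (dm6). dnc encodes the cAMP phosphodiesterase Dunce, known from learning mutants. Its region was listed at 62.4 in replicate 3 and was absent from replicate 1's list, and a start of dnc also had an IDR peak. The regions of barr, a condensin subunit gene, and wake, a gene of sleep timing, had pooled signals of 74.6 each and showed the reverse balance. barr was listed at 50.5 in replicate 1 and 20.8 in replicate 3, and wake at 53.3 and 21.0. These are the authors' values in lists made separately, so they are not on a shared scale.

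Among the 20 members of highest signal, 18 were in both replicate lists and all 20 in that of replicate 3; dnc and ced-6 were missing from replicate 1's. None held the leading word, which allows a share of up to 15.0% by counting, and 14 had the summit upstream. The summit was within 100 bp of the start in 7 and over 250 bp away in 10. Pooled signals in these 20 lay between 73.1, at Hk, and 74.6, just under the lowest IDR promoter peak. Only dnc, ph-p and ced-6 had an IDR peak at another place near a start. ph-p encodes a subunit of Polycomb repressive complex PRC1, ced-6 an adaptor for engulfing dying cells, Hk a potassium channel subunit, Fim the actin-bundling protein fimbrin and PGRP-LB an amidase that degrades peptidoglycan. PGRP-LB was listed at 16.6 in replicate 1 and 51.9 in replicate 3, and Hk at 19.4 and 54.5. Other members of the 20 were CG17574, pns, nmdyn-D6, TBC1D23, CG7878, CG46339, CG15465, CG10600, Sbat, stops, CG43066 and CG11593.

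Genes for the protein-making machinery divided differently between the IDR set and the weak regions. Of 93 cytosolic ribosomal protein genes, 56 (60.2%) had an IDR peak and 21 (22.6%) a weak region only, so 16 had neither. The weak-only share compares with 26.1% of all protein-coding genes, and the IDR share with 10.9%. Genes with an IDR peak cannot count as weak only, which lowers that share in a list with many IDR peaks. With them included, 24 of the 93 (25.8%) had a weak region, beside 28.3% of all genes. Those with a weak region only included RpL15 at 67.1, RpL18 at 65.1 and RpS6 at 63.1. RpL15 was listed at 29.3 in replicate 1 and 47.5 in replicate 3, RpL18 at 15.1 and 59.3, and RpS6 in replicate 3 only, at 60.7. The summits lay 20, 46 and 15 bp upstream of the start, close to where transcription begins.

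Mitochondrial ribosomal protein genes had a weak region only in 21 of 73 (28.8%) and an IDR peak in 14, beside 26.1% and 10.9% of all genes, so the weak-region share was near the background. The strongest of the 21 was the region between mRpS25 and nmdyn-D6, a divergent pair that shares 1 region of signal 74.2, listed at 53.4 in replicate 1 and 33.8 in replicate 3. mRpL18 followed at 68.1 and mRpS29 at 60.9, both in replicate 3's list only. Translation factors had a weak region only in 13 of 54 (24.1%), also near it, and an IDR peak in 11. These included eIF2D at 72.2, eRF3, the release factor GTPase, at 70.8 and eIF4A, the helicase of cap-dependent initiation, at 51.1. eIF2D was in both lists, and eRF3 and eIF4A in that of replicate 3 only.

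Proteasome and respiratory chain genes had IDR peaks in lower shares than the 10.9% of all genes. Their weak-region shares were near the 26.1% of all genes, and no difference was tested. Proteasome subunits had a weak region only in 12 of 48 (25%) and an IDR peak in 1 (2.08%). Rpn13 stood at 59.8 and Rpn10, a ubiquitin receptor of the proteasome, at 56.9, both in replicate 3's list only, while Prosalpha3 at 45.2 was in both lists. Oxidative phosphorylation genes had a weak region only in 24 of 84 (28.6%) and an IDR peak in 5 (5.95%). COX5A, a subunit of cytochrome c oxidase, stood at 70.9 and ND-39, a subunit of complex I, at 53.4, both in replicate 3's list only. COX7AL2, at 59.8, was in both lists with its summit 477 bp downstream of the start.

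Genes for chemical receptors and for cuticle proteins had low shares of weak regions. Odorant and gustatory receptors had a weak region only in 16 of 119 (13.4%, interval 8.45 to 20.7) and an IDR peak in 0, which allows an IDR share of up to 2.52%. Cuticle proteins had a weak region only in 14 of 117 (12.0%, 7.26 to 19.1) and an IDR peak in 0, which allows up to 2.56%. Both weak-region shares compare with 26.1% of all genes and were not tested. The regions were also weak, with a median signal of 26.8 for the receptors and 21.5 for the cuticle genes, against 30.9 for all genes with a weak region only. Gr63a, part of the carbon dioxide receptor, had the highest value among the receptors, 34.3, and was in replicate 3's list only. Gr89a at 33.3 was in replicate 1's list only, and Or85d at 31.2 was in both. Among cuticle genes, Lcp3 at 26.4 was in replicate 1's list only, and TwdlD at 25.4 and Cpr97Ea at 24.7 were in neither.

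Segmentation and dorsoventral genes, regulators of the embryonic body plan, had a weak region only in 9 of 34 (26.5%), the background share of 26.1%, and an IDR peak in 1, beside 10.9% of all genes. nkd, an inhibitor of Wingless signalling, stood at 62.1 in replicate 3's list only, and hb, the gap gene hunchback, at 38.8 in both lists. Doc1, a T-box gene of dorsal tissues, stood at 36.5 in replicate 3's list only. Of 8 Hox genes, 4 had a weak region only (50%, interval 21.5 to 78.5) and 0 an IDR peak, beside 26.1% and 10.9% of all genes. With so few genes, 0 allows an IDR share of up to 37.5%, and no difference was tested. Antp, which specifies thoracic segments, had 61.5 and was listed at 29.3 in replicate 1 and 37.8 in replicate 3. Abd-B at 26.9 and lab at 26.1 were in replicate 1's list only, so Antp was the only one of these 3 in both lists.

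Chromatin regulators were mixed. Of 20 insulator and architectural protein genes, 8 (40%) had an IDR peak and 2 (10%) a weak region only, beside 10.9% and 26.1% of all genes. Genes with an IDR peak cannot count as weak only. With them included, 5 of the 20 (25%) had a weak region, beside 28.3% of all genes. The 2 with a weak region only were vtd, a cohesin subunit, at 22.4 and su(Hw), the gypsy insulator protein, at 21.8. Both were in both lists and near the bottom of the members' range. Polycomb and trithorax group genes had a weak region only in 5 of 21 (23.8%, near the 26.1% of all genes) and an IDR peak in 4. ph-d, the neighbour and near copy of ph-p, stood at 50.6 in both lists, osa, a subunit of a Brahma remodelling complex, at 44.4 and phol, a relative of the Polycomb-recruiting factor pho, at 35.3, the last 2 in replicate 3's list only. Reads from near-identical copies such as ph-p and ph-d cannot always be placed, and how the authors treated them is not given in the sources used here.

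Cell cycle and replication genes had a higher share with a weak region only than any other list except the Hox genes. A weak region only was found at 14 of 30 (46.7%, interval 30.2 to 63.9), and an IDR peak at 6, beside 26.1% and 10.9% of all genes. With IDR genes included, 17 of the 30 (56.7%) had a weak region, beside 28.3% of all genes. Neither difference in weak regions was tested. aurB, the Aurora B kinase gene, stood at 56.5 and CycB3, a mitotic cyclin gene, at 54.9, both in both lists. aurA, the Aurora A kinase gene, shared 1 region of signal 53.8 with its divergent neighbour CG3281, a zinc finger gene, in replicate 3's list only. Genes of RNA polymerase II and its general factors had a weak region only in 9 of 31 (29.0%, near the background) and an IDR peak in 7. Taf11 at 53.3 was in both lists, and TfIIA-L at 47.7 and Taf4 at 45.5 were in that of replicate 3.

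Heat shock and chaperone genes had a weak region only in 6 of 20 (30%) and an IDR peak in 5, beside 26.1% and 10.9% of all genes. Gp93, an endoplasmic reticulum chaperone gene, stood at 72.9 in both lists, and Hsp22 at 59.2 and DnaJ-1 at 54.7 in replicate 3's list only. Neural and muscle identity genes had a weak region only in 9 of 24 (37.5%) and an IDR peak in 3. da, the general partner of basic helix-loop-helix factors, stood at 45.9, the muscle factor gene Mef2 at 37.8 and pros, a neural fate gene, at 34.0. Of these 3, only Mef2 was in both lists. Genes of CG6654's own ZAD family and related zinc fingers had a weak region only in 11 of 44 (25%, near the background) and an IDR peak in 8. Phs stood at 70.5, CG3281 at 53.8 and Sry-delta at 47.7. No member had CG6654 as its nearest gene.

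**Figure D5:**
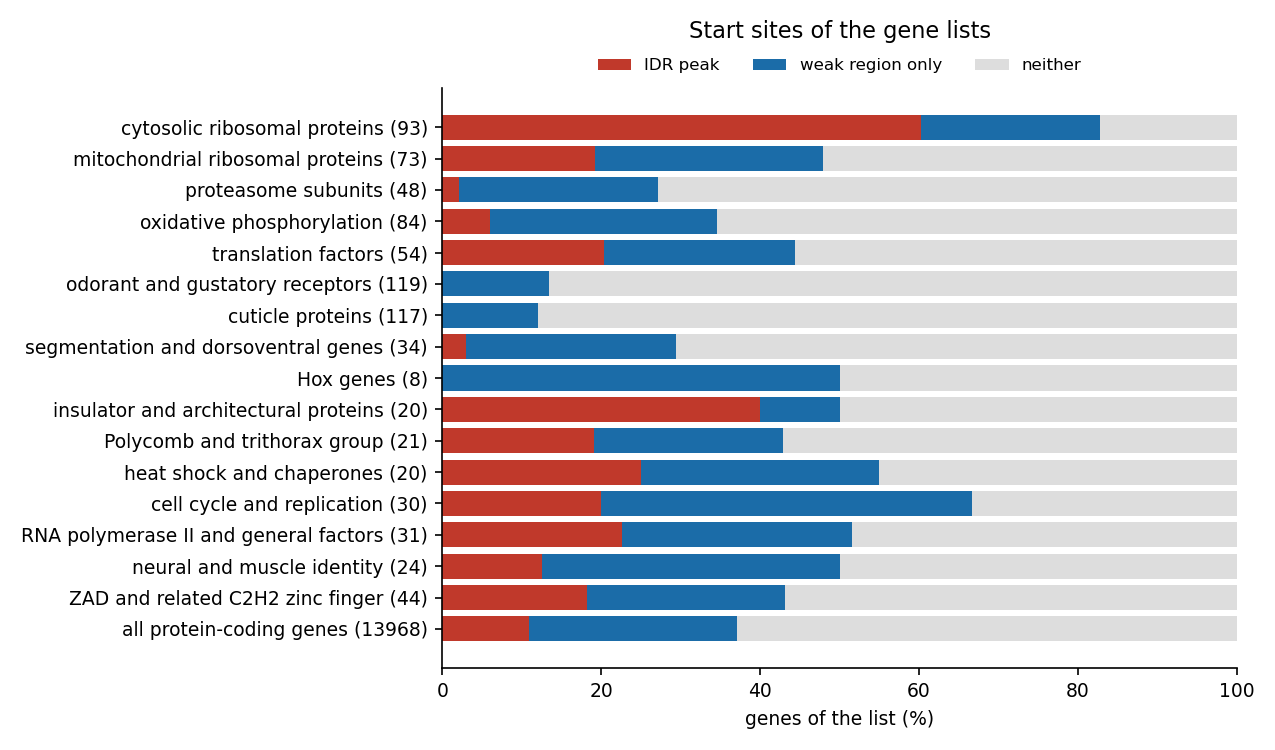
Percentage of genes (x axis) with an IDR peak at a start, with a weak region only or with neither, for 16 gene lists and all protein-coding genes; the number of genes is in brackets. The share with a weak region only lies between 10% and 50%, beside 26.1% of all genes, while the IDR share runs from 0% to 60.2%.

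Across chromosome arms, the share of genes with a weak region was highest on 3L and low on chromosome 4. A weak region was at 32.3% (interval 30.6 to 34.1) of genes on 3L, and at 26.6% to 28.2% on 2L, 2R, 3R and X. Chromosome 4, which is largely heterochromatic, had 12 of 80 (15%, 8.79 to 24.4). None of 23 genes on Y had one. The share of members on X was 15.3%, against 17.0% of IDR promoter peaks (odds ratio 0.881, exact test, adjusted p = 0.227).

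The values at the borders of the rule were as follows. The last members inside the 500 bp limit, at CG14636 and sdt, lay exactly 500 bp from a start with signals of 68.5 and 65.9. The first regions beyond it, at cv-2 and CG31960, lay at 501 bp with 38.6 and 36.6. At the limit of strength, dnc at 74.6 fell outside the IDR set and CG31176 at 75.2 inside it. Of the members, 273 had a summit within 1000 bp of an IDR summit, and without them the upstream share was 58.1% and the share with the leading word 0.431%.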

How the data were processed

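ChIP-seq regions of CG6654-eGFP embryos (1 group, replicates 1 and 3) were used on dm6. Per the file lists deposited with the libraries, the authors called regions against a control without a threshold, per replicate and on pooled reads, and derived the IDR set from them; for aligner, caller, versions and the IDR threshold, the sources used here give nothing. Each deposited region carries the authors' signal value, on an unstated scale, a −log10 q-value, and a summit offset in bases. Depth is unknown. Lists on dm3 were not analysed here.

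Computed here, with Python 3.11.15, numpy 2.4.6, pandas 2.3.3, scipy 1.17.1 and statsmodels 0.14.6: overlaps (1 bp or more), nearest protein-coding starts (19630 positions, Ensembl release 115), words in Release 6 sequence, 95% Wilson intervals, and two-sided Fisher's exact or exact McNemar tests. Benjamini-Hochberg adjustment ran over the 9 tests of regions, a choice made later than the tests, and over the 22 word tests. Overlap, start, word and paired tests were tested on simulated data. Alternatives were other promoter distances, stricter signal, only regions in a given replicate's list, reciprocal overlap of 50%, other windows and 1 region per gene. For core words, the most upstream start of every gene was a further alternative. A word from IDR peaks away from starts was added later.

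Members and lists were chosen with earlier results of these data known. Named genes are the 20 members of highest signal, up to 3 weak-only genes per list by signal, the 2 regions on each side of the 500 bp limit, and the members with printed sequence, for which arm 2R was left out and 1 further member is not reported here. The printed CG8861, shps, Phs, CG10214 and Rlip, and the gene CG31176, were chosen after values were seen. List names matched by symbol, 10 by a RefSeq synonym; 5 were not matched.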

Additional observations from a re-analysis of the deposited data

How the results depend on the processing

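The lower upstream share, the lower divergent share and the lower share with the leading word, members against IDR promoter peaks, kept direction and side of the threshold in each alternative run. Over these results and the counts of words, 92 alternatives kept both, 9 passed the threshold, 5 moved a count and 2 turned a direction. For members in both replicate lists, the odds ratio against distant weak regions passed the threshold at 0.846 (250 bp promoters), 0.931 (1000 bp), 0.650 (signal at or above the pooled median) and 0.600 (1 region per gene). Restricted to regions of replicate 3's list it was 0.574 and to those of replicate 1's list 1.81, which turned the direction. In each case the other list decides the outcome, so no replicate is left out. Summits within 100 bp gave 1.24 at 250 bp, the opposite direction, and 0.716 at 1000 bp. They gave 0.727 for members in replicate 1's list and 1.08 for members in replicate 3's list. The share on X gave 0.823 at 1000 bp. The word from IDR peaks away from starts, chosen after seeing the data, left each call of the leading word on its side. The leading word by signal passed at 1.57 with 1 mismatch; among members in both lists, an alternative chosen after seeing the data, it had no ratio, with 2 of 265 against 0 of 265.

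Core words that differed from IDR genes numbered 4 at 1000 bp, 1 at or above the median signal and 1 for regions in both lists, against 2 in the text. They numbered 3 for regions in replicate 3's list and 5 for regions in replicate 1's list. Those that differed from genes without a region rose from 4 to 7 for regions in replicate 3's list. Single words changed direction 6 times. The TATA box against IDR genes did so at 250 bp (0.800) and with a window from 250 bp upstream (0.843). CGATA and the M1BP core did so when members were restricted to a given replicate's list. CGATA ranged from 0.734 to 1.13 against genes with none and from 0.810 to 1.24 against IDR genes. For the M1BP core the ranges were 0.708 to 1.33 and 0.665 to 1.25. The causes were not tested.

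The lists carry no read totals, so it cannot be said which weak regions deeper libraries would keep. With 2 replicates of 1 group and no control analysed here, weak binding and background at open promoters cannot be told apart.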
